A study of Arabidopsis thaliana with 20 samples.

Results

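Class III peroxidases are secreted haem enzymes of plants that use hydrogen peroxide to oxidise phenolic compounds, and that can also generate reactive oxygen species in the cell wall. They cross-link lignin, suberin and wall proteins, which stiffens the wall, while the oxygen radicals they form can loosen it, and in roots they are linked to cell elongation and to the barriers around the vascular tissue. The genes described here are AT3G21770, AT4G30170 and AT3G01190, 3 members of this family. They were chosen by name, through 1 probe set each, out of 13355 genes that the annotation used here pairs with a probe set of their own, on an Affymetrix array with 22746 gene probe sets. Earlier results of these data were known when they were chosen, so the p-values and ranks below are not those of genes picked without sight of the data. The RefSeq gene table used here gives no symbol for any of them beyond the locus name, so they are called by it.

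The samples were laser-captured cells from roots of Arabidopsis thaliana of the Columbia ecotype. At 3 weeks of age, seedlings received an inoculum of 1000 juveniles of Meloidogyne incognita, a root-knot nematode, and cells were cut 21 days later. Giant cells, the enlarged feeding cells that the nematode induces, came from infested regions (about 80 cells and 5000000 square micrometres per sample). Control cells (about 150 cells and 13000000 square micrometres) came from regions without nematodes on the same infested roots, so no group came from an uninfested plant. RNA was amplified with the NuGEN WT-Ovation Pico kit after column isolation, or with the WT-Ovation One-Direct kit straight from lysed cells, and kit and isolation cannot be told apart. Each of the 4 groups held 3 biological samples, and in each group 1 sample was run on 3 technical arrays, for 20 arrays and 12 samples in all. The labels do not tie samples to plants, so the tests weigh differences against sample-to-sample spread alone, which may be technical in part.

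Values are MAS5 signals, and every array had a mean signal of about 500 after trimming 2% at each end. For split samples, the value is the mean of the 3 arrays taken as log2(signal + 16). Within groups, samples amplified with Pico correlated with the others of their group at a mean r of 0.920 to 0.957 over the 22746 gene probe sets. In One-Direct this was 0.715 for control sample 1, 0.796 and 0.771 for control samples 2 and 3, and 0.832 to 0.847 for giant cells. Control One-Direct sample 1 therefore stood apart, and the changes of AT3G21770, AT4G30170 and AT3G01190 in One-Direct are also given without it. The median variance within groups was 3.41 times as large in One-Direct as in Pico. The tests used 1 spread per probe set for both kits, so the SE and intervals given for One-Direct may be too small. With 3 samples a group, the number of samples limits the precision. In these captured samples, fewer cells of a type and less RNA per cell cannot be told apart, and cell type goes with the amount captured.

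All 3 peroxidases had lower signals in giant than in control cells when RNA was amplified with Pico, by 5.65-fold for AT3G21770, 23.3-fold for AT4G30170 and 10.5-fold for AT3G01190. With One-Direct, AT3G21770 was 3.00-fold lower without passing the test, and the other 2 had giant and control samples in the same range. Over both kits, limma called all 3 lower in giant cells, where 9.04% of the 14652 probe sets tested were called lower. AT3G01190 was tested only because its 3 Pico control samples stood above the array median, the group in which it was high. Its call over both kits was lost in 15 of 23 alternative settings, among them the one with no filter on dim signals. AT4G30170 also needed its Pico control samples to reach the 3 samples above the median that the filter asks for. The folds above are on the scale of log2(signal + 16), which understates the change of dim probe sets. Since every array is scaled to the same mean, they are relative to the array and not amounts per cell.

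**Figure D1:**
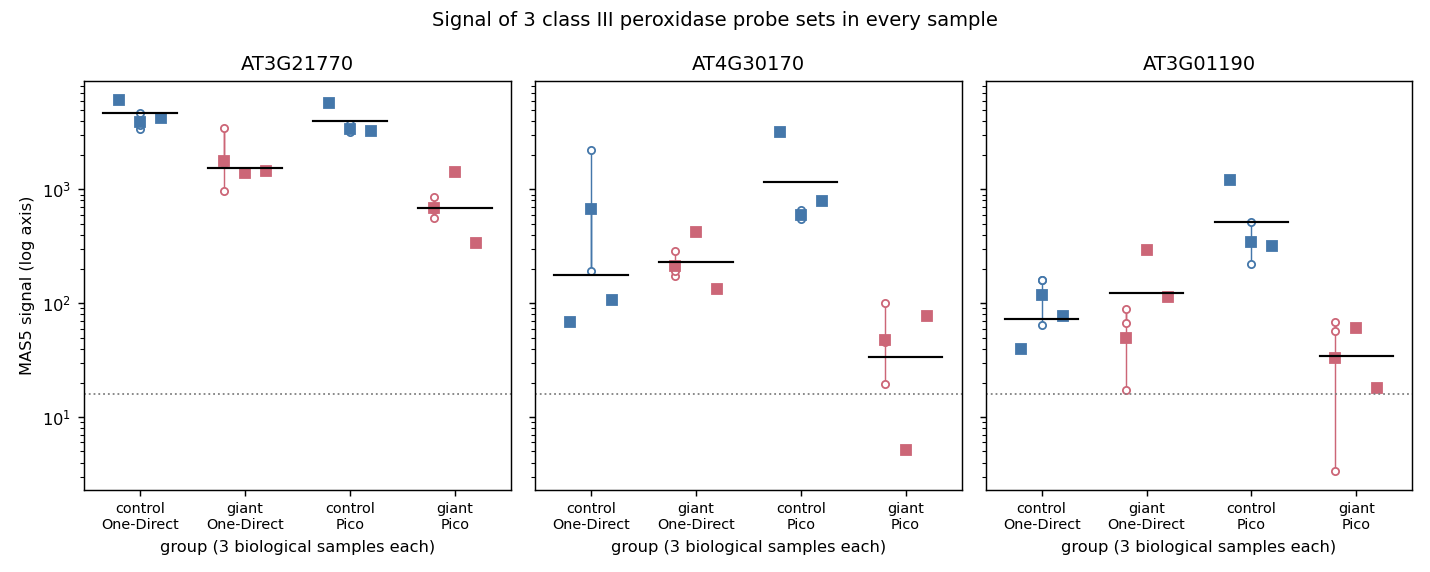
MAS5 signal (log axis) of each peroxidase probe set in each group. Squares are the 3 biological samples of a group, open circles the technical arrays of the split sample, black bars the group means on the log2(signal + 16) scale, and the dotted line the pseudocount of 16. The giant cell squares lie below all control squares in Pico for every gene, and in One-Direct for AT3G21770.

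AT3G21770 gave the clearest separation. With Pico its signal was 5685, 3410 and 3272 in the 3 control samples and 682, 1417 and 340 in the 3 giant cell samples. With One-Direct it was 6136, 3882 and 4215 in control samples and 1783, 1391 and 1462 in giant cell samples. No giant cell sample reached the lowest control sample with either kit, a pattern that 4.59% of the probe sets tested showed in this direction. The probe set stood above 95.9% to 98.7% of probe sets in every control sample. In giant cells it stood above 90.8% to 93.0% of them with One-Direct and 61.5% to 89.0% with Pico. This rank within an array does not depend on how arrays are scaled.

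For AT3G21770 the log2 change between giant and control cells was -2.04 over both kits (SE 0.33, 95% interval -2.76 to -1.32, limma adjusted p = 0.00137, n = 3 per group). It was -2.50 in Pico (adjusted p = 0.00508) and -1.59 in One-Direct (adjusted p = 0.0652). The effect in One-Direct did not pass, and 2.1% of probe sets were called lower there. The change in One-Direct was -1.39 (adjusted p = 0.106) without control sample 1, and the call was gained without giant Pico sample 2 (adjusted p = 0.0474), which enters through the shared spread. The difference between the kits' effects was 0.91 (interval -0.53 to 2.35, adjusted p = 0.746). Permuting cell type labels within each kit gave an exact two-sided p of 0.005 over both kits, the smallest that these 400 arrangements can give. Within 1 kit, 3 samples against 3 cannot go below 0.1, and both kits gave 0.1.

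AT4G30170 differed between cell types in Pico. Its signal there was 3163, 599 and 797 in control samples and 47.6, 5.15 and 77.2 in giant cell samples. The groups lay far apart, with control sample 1 the highest and a giant cell value below the pseudocount in sample 2, so the size of this fold depends on the pseudocount. The log2 change was -4.54 (SE 0.84, interval -6.35 to -2.74, limma adjusted p = 0.0044). Of the 14652 probe sets, 7.06% were called lower in Pico, and this change ranked 56 in size among all of them, in either direction. It ran from -5.35 to -3.56 over the alternative settings, all of which kept the call. AT4G30170 passed the filter on dim signals with 5 samples above the array median, the 3 Pico control samples among them. The others were control One-Direct sample 2 and giant One-Direct sample 2. Without the Pico control samples, the group in which it was high, it would not have reached the 3 needed.

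With One-Direct, AT4G30170 gave signals of 69.1, 669 and 108 in control samples and 213, 425 and 132 in giant cell samples. The highest and the lowest sample were both controls, and all 3 giant cell samples lay between them. The log2 change was 0.35 (SE 0.84, interval -1.45 to 2.15, adjusted p = 0.828). The high control value came from a split sample whose technical arrays read 679, 190 and 2228, a range of 11.7-fold within 1 RNA sample. Without that sample the log2 change was 1.26 (adjusted p = 0.315), and without control sample 1 it was -0.24 (adjusted p = 0.898).

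AT3G01190 followed AT4G30170. In Pico its signal was 1213, 343 and 319 in control samples and 33.1, 60.4 and 18.0 in giant cell samples, again with control sample 1 the highest and no overlap between groups. The log2 change was -3.39 (SE 0.63, interval -4.76 to -2.03, limma adjusted p = 0.00477). AT3G01190 passed the filter on dim signals through exactly 3 samples above the array median, the 3 Pico control samples, so it entered the tests only through the group in which it was high. The technical arrays of giant Pico sample 1 read 3.37, 57.0 and 67.9, so 1 of the 3 fell below the pseudocount.

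With One-Direct, the signal of AT3G01190 was 40.1, 119 and 76.7 in control samples and 50.0, 296 and 114 in giant cell samples. The groups overlapped, with the highest value in giant cell sample 2. The log2 change was 0.64 (SE 0.63, interval -0.73 to 2.01, adjusted p = 0.557), and 0.31 (adjusted p = 0.821) without control sample 1. The intervals of both genes in One-Direct include 0 and also sizeable changes, so these values do not show that giant and control cells were alike there.

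Averaged over both kits, AT4G30170 changed by -2.10 (SE 0.59, adjusted p = 0.0259) and AT3G01190 by -1.38 (SE 0.45, adjusted p = 0.0469). These means combine a large difference in Pico with values near 0 in One-Direct. The exact permutation test within kits gave two-sided p of 0.08 and 0.12. The call of AT4G30170 was lost without control Pico sample 1 (-1.73, adjusted p = 0.0632), giant Pico sample 2 (-1.79, adjusted p = 0.0634) or giant One-Direct sample 3 (-1.91, adjusted p = 0.0673). That of AT3G01190 was lost in 15 of 23 alternatives, among them 10 of the 12 that leave out a sample, where it ran from -1.67 to -1.07 and its adjusted p from 0.0244 to 0.115. It was kept only without control One-Direct sample 1 (-1.54, adjusted p = 0.0266) or giant One-Direct sample 2 among these 12.

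The difference between the kits' effects (One-Direct minus Pico) was 4.89 log2 units for AT4G30170 (SE 1.18, interval 2.34 to 7.44) and 4.03 for AT3G01190 (SE 0.90, interval 2.10 to 5.96). By size they ranked 7 and 31 among the 14652 probe sets. Neither passed after adjustment over all of them (limma adjusted p = 0.172 and 0.142, unadjusted p = 0.00114 and 0.000581). Only 3 probe sets, 0.0205% of those tested, passed this contrast. Without control One-Direct sample 2, the split sample with the wide technical range, the difference for AT4G30170 was 5.80 and passed (adjusted p = 0.0434).

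**Figure D2:**
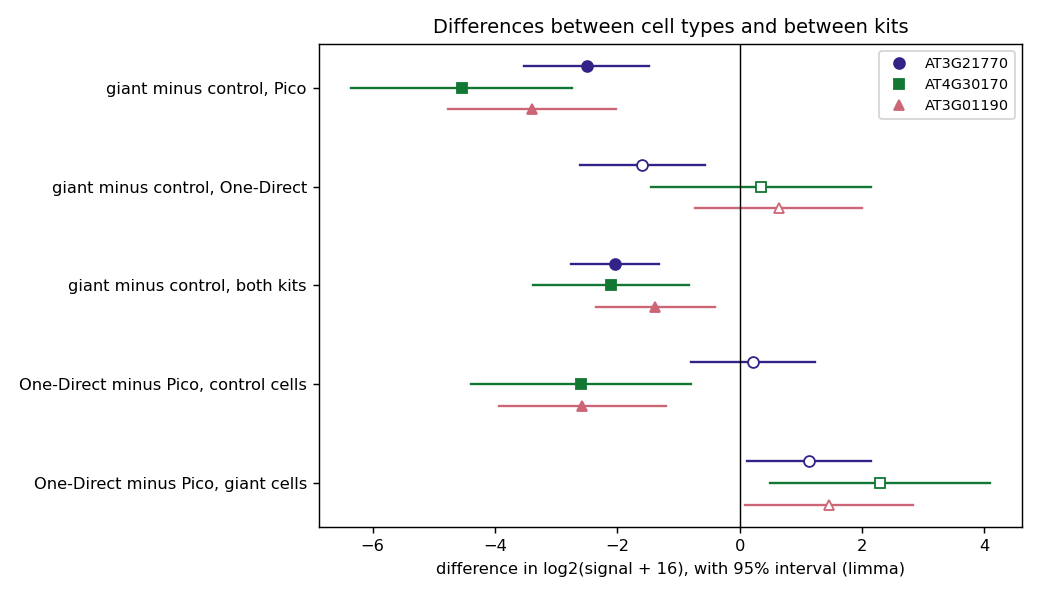
Differences in log2(signal + 16) with 95% intervals from limma, for giant against control cells and for One-Direct against Pico. Filled symbols passed an adjusted p of 0.05. All 3 genes are filled and below 0 in Pico, none is filled in One-Direct, and AT4G30170 and AT3G01190 are lower with One-Direct in control cells.

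The kits were also compared within each cell type. In control cells, AT4G30170 gave a 6.03-fold lower signal with One-Direct than with Pico (log2 difference -2.59, SE 0.84, limma adjusted p = 0.0416), and AT3G01190 a 5.94-fold lower one (-2.57, SE 0.63, adjusted p = 0.0117). For AT3G01190 all 3 One-Direct control samples lay below all 3 Pico ones. For AT4G30170 control One-Direct sample 2, at 669, lay above Pico sample 2, at 599. AT3G21770 did not differ detectably in control cells (0.22, interval -0.80 to 1.24, adjusted p = 0.78). In this contrast 10.1% of probe sets were called lower with One-Direct.

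The call of AT4G30170 between kits in control cells was lost without control Pico sample 1 (-1.87, adjusted p = 0.172), control One-Direct sample 1 (-2.00, adjusted p = 0.123), control One-Direct sample 3 (-2.27, adjusted p = 0.0989) or 3 other samples (-2.85 and -2.59, adjusted p = 0.0553 to 0.0688). That of AT3G01190 was lost without control Pico sample 1 (-1.96, adjusted p = 0.0579). In giant cells all 3 genes had higher mean signals with One-Direct, by 1.13 log2 units for AT3G21770 (adjusted p = 0.111), 2.30 for AT4G30170 (adjusted p = 0.0691) and 1.46 for AT3G01190 (adjusted p = 0.125). None passed, and 15.2% of probe sets were called higher. These sizes depended on the scaling of the arrays, with 0.43 for AT3G21770, 1.73 for AT4G30170 and 0.90 for AT3G01190 after median centring, and 1.32, 1.23 and 0.23 after quantile normalisation. Averaged over cell types, the differences between kits were 0.68, -0.15 and -0.55 log2 units in the same order (adjusted p = 0.136, 0.873 and 0.368), in a contrast that called 34.3% of probe sets in either direction.

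Spread between arrays differed by gene and group. Over the 3 technical arrays of a split sample, the SD of log2(signal + 16) for AT4G30170 was 1.72 in control One-Direct and 0.129 in control Pico, against medians of 0.647 and 0.285 over all probe sets tested. AT3G01190 had its widest technical spread in giant cells with Pico, at 1.17 against a median of 0.288. For AT3G21770 it was 0.90 in giant cells with One-Direct, against a median of 0.389, and 0.115 to 0.302 in the other groups. Each of these values rests on 1 split sample.

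Over the 3 biological samples, the SD of AT4G30170 was between 0.792 and 1.60 in the 4 groups, above the median of all probe sets in each. In control Pico it was 1.27, larger than that of 97.3% of probe sets, and 1.06 for AT3G01190. AT3G21770 had an SD of 0.187 in giant cells with One-Direct, below the median of 0.463, and of 1.01 in giant cells with Pico, above the median of 0.306. The differences in Pico were nonetheless larger than the spread for all 3 genes, as tested above.

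**Figure D3:**
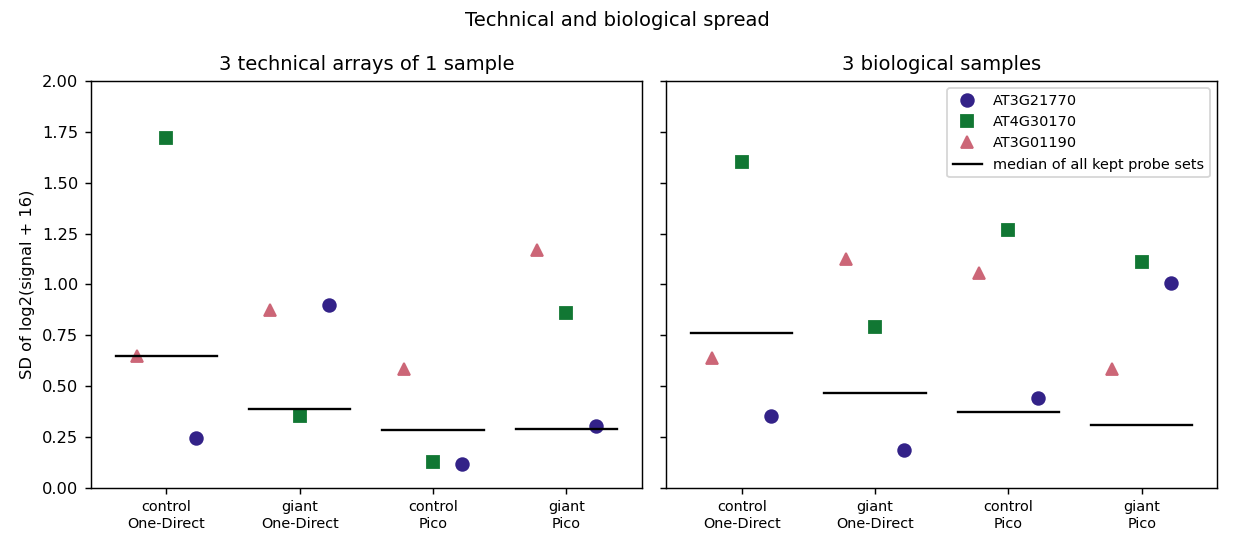
SD of log2(signal + 16) over 3 technical arrays of 1 split sample and over 3 biological samples, by group. Symbols are the peroxidases, and black bars the median over all 14652 probe sets tested. AT4G30170 has its highest SD in control One-Direct in both panels, at 1.72 and 1.60.

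Across the 12 samples, AT4G30170 and AT3G01190 correlated at r = 0.852, and AT3G21770 correlated with them at 0.508 and 0.547. These are descriptions, since the samples share groups and kits. Among 8078 other genes, AT3G19200 was the closest to AT3G01190 (r = 0.961) and to AT4G30170 (r = 0.938). Its log2 difference between giant and control cells was -3.38 in Pico and 0.43 in One-Direct. Next came AT3G51330 (0.869) and AT5G24880 (0.860) for AT4G30170, and AT3G59370 (0.907) and AT3G25400 (0.871) for AT3G01190. The closest to AT3G21770 were AT1G23120 (0.963), AT1G74460 (0.953) and AT1G30760 (0.952), all with negative differences in both kits.

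The rest of the family was read from a list of 73 class III peroxidase loci, drawn up by hand from general knowledge and not from the files, of which 55 had a probe set listed with that gene alone. RefSeq names or synonyms call 7 of the 55 a peroxidase. The others rest on that list, AT3G21770, AT4G30170 and AT3G01190 among them. The filter on dim signals kept 17, the genes above plus 14 others. Over both kits 12 of the 17 were called lower in giant cells and 0 higher, beside 9.04% and 10.5% of all probe sets. In Pico 10 of 17 were called lower, beside 7.06%, and 0 higher, beside 2.43%. In One-Direct 1 of 17 was called lower, beside 2.1%, and 0 higher, beside 3.54%. These counts include AT3G21770, AT4G30170 and AT3G01190. Of the 14 others, 9 were called lower over both kits, 7 in Pico and 1 in One-Direct, beside the same shares. The median log2 change of the 17 was -1.50 over both kits, -2.50 in Pico and -1.02 in One-Direct, where the medians of all probe sets were 0.24, 0.16 and 0.31. A gene can pass the filter through its control samples alone, so these counts describe the brighter members and not the family.

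Among the 14 others, AT2G41480, named PRX25 in RefSeq, changed most over both kits, by -3.85 log2 units (SE 0.36, limma adjusted p = 5.15e-05). It was the only family member called in One-Direct (-3.70, adjusted p = 0.00475), and it was called in Pico too (-3.99). No family member was called in One-Direct with a weight per kit, which lets the spread differ between kits. The same held when only the compared samples were fitted. In One-Direct these settings called just 2 and 0 of all probe sets tested, so they say little about the family. AT4G33420 changed by -3.44 over both kits, AT1G49570 by -2.91, AT5G64100 by -2.46 and AT2G37130 by -1.92. AT5G19890 (-1.81), AT5G51890 (-1.50), AT3G28200 (-1.34) and AT4G21960, named PRXR1 (-1.03), were called lower as well, with adjusted p of these 8 from 0.000661 to 0.0265.

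The 5 family members that did not pass over both kits were AT4G36430 (-0.70), AT1G71695 (-0.47), AT2G43480 (-0.17), AT4G08770, named Prx37 (0.61), and AT2G22420 (1.05). AT2G22420 had a geometric mean signal of 1176 in giant and 240 in control cells with One-Direct (log2 change 2.22, adjusted p = 0.0924) and of 564 and 617 with Pico. Its One-Direct control samples were widely spread, with an SD of 2.08 log2 units against 0.035 in giant cells, and its lowest signal over all samples was 40.0. All 17 kept genes are named here, a choice made after their values were seen.

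**Figure D4:**
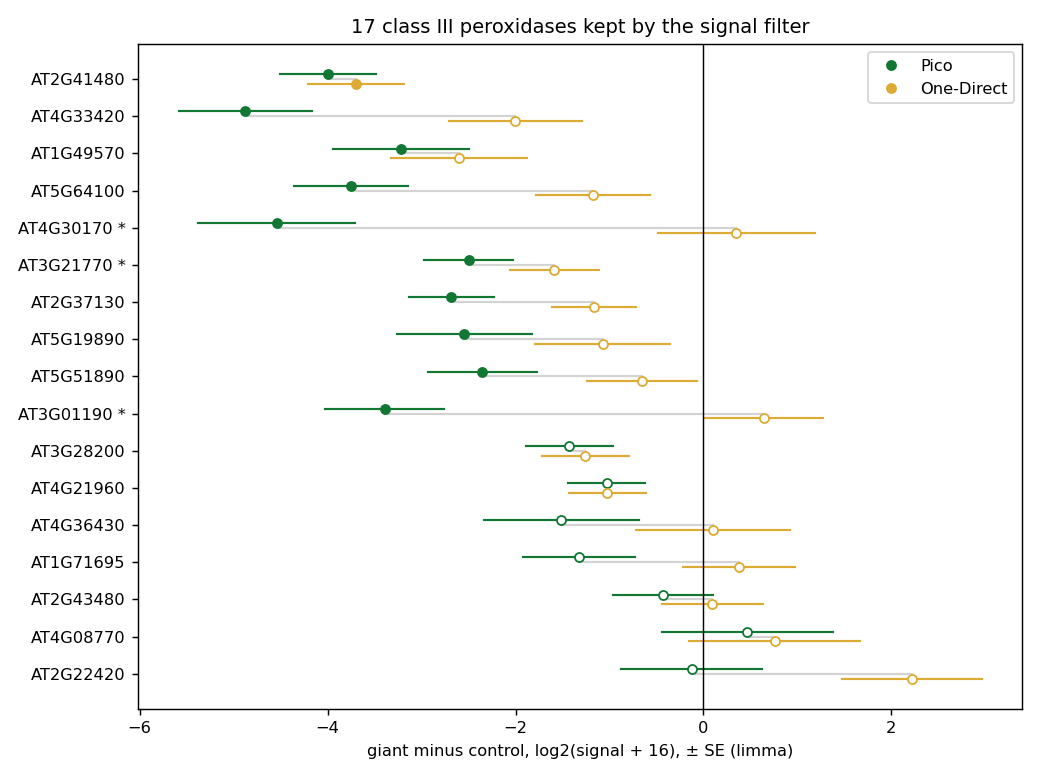
Giant minus control difference in log2(signal + 16), with SE, for the 17 class III peroxidases kept by the filter, with each kit. Filled circles passed an adjusted p of 0.05, and asterisks mark AT3G21770, AT4G30170 and AT3G01190. The Pico value lies to the left of the One-Direct value for all 17 genes.

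For all 17 kept peroxidases the change was more negative, or less positive, in Pico than in One-Direct, as it was for 60.8% of all probe sets tested. None of the 17 passed the test of this difference. With Pico, giant cells lay below control cells without overlap for 12 of 17, beside 17.5% of probe sets, and with One-Direct for 4 of 17, beside 6.81%. They lay above without overlap for 0 of 17 with Pico, beside 25%, and for 1 with One-Direct, AT2G22420, beside 14.6%. The 4 that lay below with One-Direct were AT3G21770, AT2G41480, AT1G49570 and AT3G28200, and they did not overlap in Pico either. The count of 12 called over both kits was 7 without control Pico sample 1 and 7 without giant One-Direct sample 3. All probe sets called in either direction fell as well, from 2868 to 2074 and 1985 in that order. With a stricter filter, which asks for 9 of 12 samples above the array median, only 5 family members were tested, without AT4G30170 and AT3G01190. Of these 5, 4 were called lower over both kits, beside 8.27% of the 9001 probe sets tested.

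The 38 family members below the filter had highest signals over the 12 samples from 46.0 to 1550, and 16 of them never rose above the median of an array. The highest was that of AT2G18980 in giant cells with One-Direct, where its mean was 339, against 37.1 in control cells. With Pico its mean was 5.55 in giant and 95.1 in control cells. Of these 38, 11 lay lower and 2 higher in giant cells without overlap with Pico, and 0 lower and 7 higher with One-Direct. Of all 8094 probe sets below the filter, 13.5% lay lower and 6.29% higher in this way with Pico, and 1.04% lower and 17.6% higher with One-Direct. With no filter, 13 of the 55 class III peroxidases were called lower and 1 higher over both kits, beside 5.6% and 6.09% of all probe sets.

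UPBEAT1 (UPB1, AT2G47270), a root transcription factor known to repress peroxidase genes, was called lower in giant cells with Pico and over both kits. With One-Direct it was not called, and giant and control cells overlapped. In Pico its geometric mean signal was 773 in control and 49.0 in giant cells (log2 change -3.60, adjusted p = 0.0213), and in One-Direct 134 and 107 (-0.29, adjusted p = 0.87). Over both kits it changed by -1.95 (SE 0.62, limma adjusted p = 0.0441). Of the 18 genes of monolignol synthesis listed, which supply lignin precursors, 2 could be read. CCR2, a cinnamoyl-CoA reductase, had a log2 difference of -2.76 over both kits (limma adjusted p = 0.00833). It was called in Pico (-3.44, adjusted p = 0.0247) but not in One-Direct (-2.07, adjusted p = 0.162), where giant and control cells overlapped. HCT had a log2 difference of -1.22 over both kits (adjusted p = 0.106) and was called with neither kit.

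Of 12 extensins and proline-rich wall proteins, which peroxidases can cross-link, 2 were read. HRGP1 (AT3G54590) had log2 differences of -3.87 in Pico (adjusted p = 0.00199) and -0.11 in One-Direct (adjusted p = 0.931), through a probe set of the _x_at type that may match other genes. Those of AT2G43150 were -2.35 in Pico (adjusted p = 0.0207) and 0.41 in One-Direct (adjusted p = 0.687). The 3 NADPH oxidases and 1 laccase with probe sets, of 10 and 17 listed, were below the filter, and none of the 24 listed catalases, superoxide dismutases and other peroxidase classes could be read.

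Of the root cell type markers read, AT1G09750 and SWEET11 passed the filter and were tested. The summed signal of both cortex markers, AT1G62500 and AT1G09750, was 268 to 3240 in control and 18.6 to 36.1 in giant cells with Pico, and 62.4 to 269 and 121 to 934 with One-Direct. With One-Direct, AT1G62500 was the brighter of the 2, at geometric means of 86.0 in control and 214 in giant cells. The log2 difference of AT1G09750 alone was -4.24 in Pico (adjusted p = 0.019) and 0.61 in One-Direct (adjusted p = 0.742). AT1G09750 passed the filter with exactly 3 samples above the array median. Its geometric mean was 605 in Pico control cells and 16.9 to 43.9 in the other groups. It may thus have been tested only through the group in which it was high. The phloem marker SWEET11, 1 of 5 listed, was 986 to 2329 in control and 1.28 to 80.9 in giant cells with Pico, and 169 to 669 and 17.5 to 108 with One-Direct. It was lower in giant cells without overlap with both kits, with log2 differences of -5.50 in Pico (adjusted p = 0.000641) and -1.95 in One-Direct (adjusted p = 0.12). GSO1, 1 of 9 endodermis markers, was 79.8 to 185 and 0.769 to 23.9 with Pico, and 10.5 to 532 and 49.9 to 91.4 with One-Direct. EXPA7 and EXPA18, 2 of 4 root hair markers, summed to between 12.8 and 151 over all groups, with overlap between cell types in both kits. EXPA18 alone was lower in giant cells without overlap with Pico, at geometric means of 43.3 in control and 8.74 in giant cells. It overlapped with One-Direct, and EXPA7 overlapped with both kits. AT1G62500, GSO1, EXPA7 and EXPA18 were below the filter. None of the markers listed for stele, xylem, root cap, meristem or dividing cells could be read here. The log2 3'/5' signal ratio of the GAPDH control probe sets, a measure of transcript ends, was 2.12 to 2.52 in control and 1.07 to 1.38 in giant cells with Pico, and 2.77 to 4.63 and 2.08 to 2.43 with One-Direct. The same ratio for actin did not follow it in Pico, where it was 2.73 to 3.37 in control and 2.96 to 3.69 in giant cells, and it was 2.82 to 3.63 and 2.46 to 2.87 with One-Direct. The part of cell make-up and transcript ends in the peroxidase results was not tested.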

How the data were processed

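The authors made the values with MAS5 in Affymetrix Expression Console, per the submitters' processing notes, which name no version. The deposited unit is intensity on a linear scale, for 22810 probe sets on 20 arrays. Arrays were rescaled to 1 trimmed mean, 64 control probe sets set aside, log2(signal + 16) computed and technical arrays averaged. Probe sets above the array median in at least 3 of 12 samples were kept (14652 of 22746). Means of the 4 groups were fitted with limma 3.58.1 (R 4.3.3), with 1 spread per probe set, two-sided tests, Benjamini-Hochberg adjustment over every kept probe set, called at 0.05. The code was tested on simulated data. Genes came from the array annotation and RefSeq's TAIR10.1 table, which served for names alone; where a gene had several probe sets, the one with the highest mean was used. Alternatives covered the pseudocount, scaling, filter, weights, technical arrays, a replicate block and each sample left out. The members, lists and tests were chosen with earlier results of these data known. Genes with like patterns are the 3 with the highest r per member. Of other lists, up to 4 kept genes are named. The family rule named all kept members only up to 12, so with 17 kept the choice to name all was made afterwards.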

Additional observations from a re-analysis of the deposited data

How the results depend on the processing

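In Pico, AT3G21770, AT4G30170 and AT3G01190 kept their direction and call in all 24 or 25 alternatives run for each, and so did AT3G21770 over both kits (log2 change -2.30 to -1.79). Depth of signal limits AT4G30170 and AT3G01190, which had Pico giant cell values near the pseudocount of 16 and were dropped by the stricter filter. Causes of the shifts below were not tested, except that filters change how many probe sets are tested. Over both kits AT3G01190 lost its call with a pseudocount of 64 (-1.02), no filter or a weight per kit (-1.38 each), and the first technical array (-1.73); leaving out 1 sample gave -1.67 to -1.07, and -2.39 to -1.64 for AT4G30170. Same-numbered samples of the 2 cell types within a kit correlated at -0.0645 to 0.0295 in their deviations from group means. With so few samples a group, this gives no sign of pairing but cannot exclude it. Same-numbered samples of different kits were not compared. With the replicate block AT3G01190 over both kits (-1.38, adjusted p = 0.0514) and AT4G30170 between kits in control cells (-2.59, adjusted p = 0.0618) lost their calls, and no other call of these genes changed.

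In One-Direct, AT3G21770 gained a call with a pseudocount of 64 (-1.56), median centring (-2.10) and all arrays with the sample as a block (-1.49), with -1.72 to -1.39 on leaving out 1 sample. AT4G30170, not called there, turned negative with quantile normalisation (-0.17), median centring (-0.12), all arrays (-0.040), sample quality weights (-0.42) and when sample 1 of the giant and of the control One-Direct group was left out (-0.19; "both samples 1" below), and ran from -0.24 to 1.26 on leaving out 1 sample. The difference between kits for AT4G30170 ran from 4.17 to 5.80 on leaving out 1 sample.

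Between kits over both cell types, quantile normalisation gave calls to AT3G01190 (-1.20) and AT3G21770 (0.89). AT4G30170 turned positive there with a pseudocount of 1 (0.14), all arrays (0.084), quality weights (0.36) and without both samples 1 (0.18). On leaving out 1 sample, AT4G30170 ran from -0.60 to 0.21 and AT3G21770 from 0.43 to 0.93. In control cells AT4G30170 lost its call with a pseudocount of 1 (-2.74), all arrays (-2.04), quality weights (-1.55), a weight per kit or only the compared samples (-2.59 each) and without both samples 1 (-2.00), with -3.51 to -1.87 on leaving out 1 sample. AT3G01190 lost its call with the first technical array (-2.25), with -2.90 to -1.96 on leaving out 1 sample. In giant cells quality weights gave calls to AT3G01190 (1.91), AT3G21770 (1.18) and AT4G30170 (2.28), only the compared samples to AT4G30170 (2.30), and leaving out both samples 1 to AT3G01190 (2.00). On leaving out 1 sample these ran from 0.88 to 2.00, 0.63 to 1.64 and 1.68 to 2.75.

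Class III peroxidases called lower in One-Direct, 1 as reported, numbered 2 with a pseudocount of 64 or quality weights, 3 with quantile normalisation, 4 with median centring or all arrays, 5 without both samples 1, and 0 with the stricter filter, a weight per kit or only the compared samples. All probe sets called there in either direction, 826 as reported, numbered 970, 737, 905, 789, 953, 1720, 507, 2 and 0 in these settings, in the same order. Leaving out 1 sample gave 1 to 3 family members, and 190 to 1432 of all probe sets. With the stricter filter, which left 5 members to test, 3 of 5 were called lower in Pico and 4 of 5 over both kits, beside 4.66% and 8.27% of probe sets. With no filter 13 of 55 were called lower in each, beside 4.6% and 5.6%. The family's share called lower was 58.8% in Pico and 70.6% over both kits with the main filter, and 23.6% in each with no filter. These shares thus depended on the filter. Leaving out 1 sample gave 7 to 11 family members in Pico and 7 to 12 over both kits, while all probe sets called ran from 725 to 2293 and from 1808 to 3812. With no filter (55 tested) or the first technical array, 1 was called higher in One-Direct and over both kits, and leaving out 1 sample gave 0 to 1 for each. With no filter 2.43% and 6.09% of all probe sets were called higher in these contrasts.

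Counts over all probe sets between giant and control cells were 2868 over both kits, 1757 with the stricter filter and 4335 with quality weights (1808 to 3812 on leaving out 1 sample). In Pico 1391 became 762 with quantile normalisation, 634 with the stricter filter, 4101 with quality weights, 3645 with a weight per kit, 2505 without both samples 1 and 3056 with only the compared samples (725 to 2293). In One-Direct 826 became 507 with the stricter filter, 463 with the first technical array, 2 with a weight per kit, 1720 without both samples 1 and 0 with only the compared samples, where limma in the shared fit had 3607 at an unadjusted p under 0.05 (190 to 1432). The 3 for the difference between kits became 1 with the stricter filter, 29 with all arrays, 32 with quality weights or without both samples 1, and 0 with either pseudocount, quantile normalisation, no filter or the first technical array, beside 1347 at an unadjusted p under 0.05 with limma (0 to 53). Between kits, 5027 became 8220 with no filter and 2485 with the stricter one (4265 to 5772). In control cells 3123 became 1335 with the stricter filter and 1701 with only the compared samples (2062 to 3553). In giant cells 3099 became 5432 with median centring, 6178 with no filter, 993 with the stricter filter, 5838 with quality weights and 4666 without both samples 1 (2126 to 4271).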
